A study of Homo sapiens with 4 samples.

Results

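The abundant long noncoding RNAs (lncRNAs) of MHCC97H cells were described here apart from the small nucleolar RNA host family SNHG and the best-known cancer lncRNAs. Members were chosen by their measured CPM. A member was a gene of GENCODE type lncRNA with a CPM (its count as a share of the library total, scaled to 1e6) of at least 10 in both control libraries or in both knockdown libraries. Genes named SNHG, and GAS5, ZFAS1, MALAT1, NEAT1, H19, TUG1, MEG3, HULC, KCNQ1OT1, PVT1, NORAD and OIP5-AS1, were left out, which took away 16 SNHG genes and 8 of the others that met the minimum. This left 235 members of 17658 lncRNA genes in a table of 61541 genes, and 8651 of those lncRNA genes had at least 1 count. Of the members, 150 met the minimum in both groups, 41 in the control libraries only and 44 in the knockdown libraries only. A gene that met it in 1 group only had to differ or to lie near the minimum. Tests and counts below therefore cover the 212 members whose mean over all 4 libraries was 10 CPM or more. The mean itself does not depend on direction. However, 62 of the 212 met the minimum in 1 group only, so their tests are not free of how members were chosen. The other 23 members are described with no test.

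MHCC97H is an established human hepatocellular carcinoma (HCC) line with high metastatic capacity. The study asked what loss of UBXN1, a ubiquitin-binding adaptor protein with a UBX domain, does to liver tumor cells. Poly(A) RNA was sequenced from 2 libraries of cells with a control short hairpin RNA (shCon) and 2 libraries of cells with a hairpin against UBXN1 (shUBXN1), delivered by lentivirus. The labels call the control shCon, whereas the paper's methods name shRFP. The labels do not say which UBXN1 hairpin was used, nor whether the libraries of a group came from separate cultures, so p-values measure the spread between these libraries, which may be technical.

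lncRNAs are transcribed by RNA polymerase II, mostly capped, spliced and polyadenylated like mRNAs, but carry no long reading frame. Some act in the nucleus on chromatin, some bind proteins or microRNAs in the cytoplasm, some serve mainly as precursors from which microRNAs or small nucleolar RNAs are cut, and for many no role is known. They are often transcribed antisense to a protein-coding gene or away from its promoter, and in liver and liver cancer several are used as markers of differentiation or growth.

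In shCon cells UBXN1 had 65.3 and 74.8 CPM, and in shUBXN1 cells it had 17.8 and 18.5 CPM, a log2 fold change of -2.03 (SE 0.0963, edgeR adjusted p = 9.98e-10), so the labels held. Library totals lay between 23373700 and 27380508 counts. Of 12 hepatocyte and HCC markers, 4 (TF, HNF4A, KRT8 and KRT18) were at 10 CPM or more in every library and GPC3 was at 0 in all 4. Of 10 markers of other cell types, CD68 and PECAM1 reached that level and CD3E and INS were at 0 throughout. Mitochondrial genome counts took 5.28% and 5.59% of the shCon libraries and 7.43% and 8.27% of the shUBXN1 libraries, and their part in the results was not tested.

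"Abundant" held only in the sense of the rule. The mean CPM of the members had a median of 17.6 and ran from 6.83 to 3186, and 115 members lay between 10 and 20 CPM while 10 were above 100. The 9709 protein-coding genes at a mean of 10 CPM or more had a median of 43.8 CPM. Per length, in TPM (CPM-like shares after division by gene length), the members' median was 11.6 and that of these protein-coding genes 29.3. All members together took 1.10% and 1.03% of the shCon counts and 1.04% and 1.02% of the shUBXN1 counts. By name, 92 had an Ensembl identifier only, 51 were antisense genes (-AS), 33 were LINC genes, 13 were divergent transcripts (-DT), 6 were named microRNA hosts, 1 was an overlapping transcript (-OT) and 39 had another symbol. A single exon block was annotated for 31 members (13.2%), against 1.80% of the protein-coding genes. Exon bases shared with another gene were common. They were absent in 79 members, at most 5% in 117 and above 50% in 43, and since whether the counting used strand is not given in the sources used here, counts of overlapping genes cannot be told apart.

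At the threshold itself, RAB30-DT, ZFHX2-AS1 and LINC00654 were just inside, with a lower library of the qualifying group at 10.1, 10.2 and 10.3 CPM. LINC00261, a lncRNA of endodermal tissues, fell just outside at 10.3 and 9.87 CPM in shCon and 1.07 and 0.385 CPM in shUBXN1. TNS2-AS1 and WARS2-AS1, at 9.78 and 9.77 CPM in the deciding library, were the next outside.

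Of the 212 members tested, 64 (30.2%) were higher in shUBXN1 cells and 64 (30.2%) were lower at an adjusted p under 0.05, and 84 passed in neither direction. The 64 lower count ENSG00000280614, ENSG00000281181 and ENSG00000280800 as separate genes, although their counts are the same, as described below. Of the 64 higher, 29 had met the minimum in shUBXN1 only, and of the 64 lower, 18 had met it in shCon only, so the choice of members bears on those calls. Of the 150 members that met the minimum in both groups, 35 were higher, 46 were lower and 69 passed in neither direction. The background over all 16863 genes tested was 28% higher and 28.2% lower. The shares of the 212 members were near it, but they include members chosen through 1 group, so nothing is read from this. Among protein-coding genes at a mean of 10 CPM or more, 27.9% were higher and 38.7% lower. At the study's cut-offs of a fold of 2 and an unadjusted p under 0.05, 22 members (10.4%) were higher and 12 (5.66%) lower. The cut-offs were applied here to the edgeR test, whereas the paper's methods name limma. The background for that rule was 11.8% and 6.09% over all genes and 4.52% and 4.7% over the protein-coding genes. The median log2 fold change of the members was 0.04, against 0.02 over all genes and -0.08 over the protein-coding genes. The values of the shCon and shUBXN1 libraries did not overlap for 157 members (74.1%), against 78.3% of all genes tested. Without shUBXN1 replicate 1 the same test gave 59 members higher and 82 lower, and without replicate 2 it gave 84 higher and 64 lower.

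**Figure D1:**
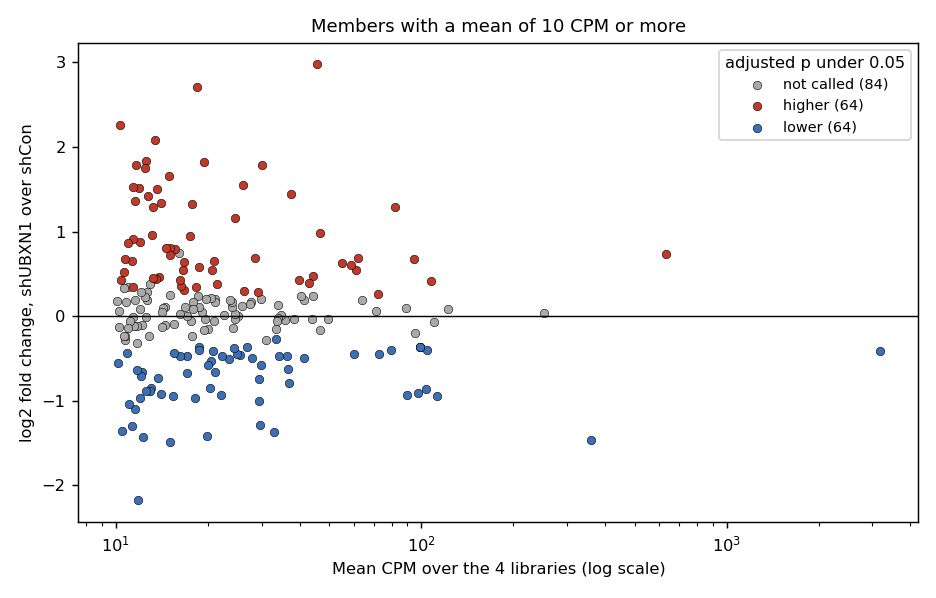
Log2 fold change of shUBXN1 over shCon against mean CPM (log axis) for the 212 members with a mean of 10 CPM or more, 1 point a gene, coloured by the edgeR call at an adjusted p under 0.05. The 64 members called higher and the 64 called lower lie across the range of levels, and most of the largest rises lie below 50 CPM.

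Antisense genes had 17 of 44 higher and 13 lower, and LINC genes 6 of 29 higher and 9 lower. Divergent transcripts had 3 of 12 higher and 5 lower. Genes with an identifier only had 22 of 84 higher and 30 lower, and genes with another symbol 11 of 36 higher and 7 lower. Of the 104 members with at most 5% of exon bases shared, 26 were higher and 34 lower, while of the 40 with more than 50% shared, 14 were higher and 8 lower. For comparison, the 14 tested SNHG genes left out by the rule had 2 higher and 9 lower. The background over all genes tested was 28% higher and 28.2% lower. The counts of members include those that met the minimum in 1 group only, so nothing is read from differences between these classes.

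The largest counts came from a block of ribosomal DNA on the short arm of chromosome 21 (GRCh38). ENSG00000280441 (chr21:8380643-8454792, plus strand) spans the 45S precursor genes RNA45SN3 and RNA45SN1, although none of its exon bases lie inside an annotated ribosomal RNA gene. It was at 3816 and 3287 CPM in shCon and at 2443 and 3200 CPM in shUBXN1, a log2 fold change of -0.41 (SE 0.132, edgeR adjusted p = 0.0161). Both shUBXN1 libraries were below both shCon libraries, but shUBXN1 replicate 2 lay closer to shCon replicate 2 than to replicate 1 of its own group. The adjusted p was 0.177 in DESeq2, 0.0605 in limma on log2(TPM + 1) and 0.11 without shCon replicate 1, and the log2 fold change was -0.20 without shUBXN1 replicate 1 and -0.68 without replicate 2. The other 4 are unspliced genes of 923 bases on the minus strand. The exons of ENSG00000280614 (chr21:8393419-8394341), ENSG00000281181 (chr21:8437629-8438551) and ENSG00000280800 (chr21:8210384-8211306) lie wholly inside the 18S ribosomal RNA genes RNA18SN3, RNA18SN1 and RNA18SN2, and ENSG00000281383 (chr21:8254592-8255514) lies wholly inside the 18S pseudogene RNA18SP5, each on the strand opposite to ribosomal RNA. The first 3 have the same sequence, and the table gives them the same counts, so they are 1 measurement entered under 3 names. ENSG00000281383 matched them in 920 of 922 aligned bases (99.78%), and the substitutions from the copies to it were G103C and G105A, counted from 1 at the 5′ end of the transcript. Each also has 1 base that the other lacks, at position 108 of the copies and at position 239 of ENSG00000281383. The stretch around them shows how little sequence separates genes with different values, and the capital marks position 103 alone, so that after the base at 108 the lines are shifted by 1. Sequences are those of GENCODE release 44.
ENSG00000280614 (bases 78 to 128): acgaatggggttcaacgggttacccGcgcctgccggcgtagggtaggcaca
ENSG00000281383 (bases 78 to 128): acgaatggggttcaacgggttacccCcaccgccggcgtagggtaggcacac

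ENSG00000281383 was at 466 and 453 CPM in shCon and at 631 and 979 CPM in shUBXN1. Both shUBXN1 libraries were higher, by a log2 fold change of 0.73 (SE 0.155, edgeR adjusted p = 0.00104), and the pair of shUBXN1 libraries was far apart. The log2 fold change was 1.04 without shUBXN1 replicate 1 and 0.32 without replicate 2, and DESeq2 gave an adjusted p of 0.0729. Each of its 3 near-copies was at 118 and 100 CPM in shCon and at 75.9 and 102 CPM in shUBXN1, so the groups overlapped and the log2 fold change was -0.37 (SE 0.126, edgeR adjusted p = 0.0213). Without shUBXN1 replicate 1 the adjusted p of these copies was 0.118. How counting placed reads among them is not given in the sources used here, and opposite values in near-identical genes are uncertain. The 5 genes took 0.464% and 0.404% of all counts in shCon and 0.330% and 0.449% in shUBXN1, and the other 230 members took 0.636% and 0.625% in shCon and 0.713% and 0.571% in shUBXN1.

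LINC02842 on chromosome 8 was the most abundant member outside that block, with a mean of 632 TPM. It was at 512 and 529 CPM in shCon and at 202 and 198 CPM in shUBXN1. The groups were far apart and the replicates nearly equal, and the gene fell by 1.46 on the log2 scale (SE 0.0764, edgeR adjusted p = 2.4e-09). LINC00942 on chromosome 12 was at 145 and 145 CPM in shCon and at 81.4 and 78.7 CPM in shUBXN1. It fell by 0.94 on the log2 scale (SE 0.0717, edgeR adjusted p = 7.68e-08), again with little spread within groups. ENSG00000237813 on chromosome 7 was at 131 and 130 CPM in shCon and at 88.5 and 64.8 CPM in shUBXN1, a log2 fold change of -0.86 (SE 0.0992, edgeR adjusted p = 4.99e-06). FGD5-AS1 was at 116 and 116 CPM against 91.8 and 94.8 CPM, with a log2 fold change of -0.40 (SE 0.0745, edgeR adjusted p = 0.0004). All 4 of these genes had groups that did not overlap.

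The remaining genes of the 10 with the highest CPM were less clear. STAG3L5P-PVRIG2P-PILRB, a readthrough transcript, was at 91.7 and 86.1 CPM in shCon and 141 and 110 CPM in shUBXN1 and rose (log2 fold change 0.41, SE 0.0901, edgeR adjusted p = 0.00139). It shares 99.4% of its exon bases with other genes, most with PILRB, an immunoglobulin-like receptor gene that rose by a log2 fold change of 0.51, and the counts of the 2 genes cannot be told apart. EBLN3P, a transcribed relic of a bornavirus nucleoprotein gene, was at 115, 104, 115 and 106 CPM in shCon replicates 1 and 2 and shUBXN1 replicates 1 and 2, with a log2 fold change of -0.07 (SE 0.0753, edgeR adjusted p = 0.436). ENSG00000266976 (260, 224, 304 and 224 CPM) and LINC00342 (120, 110, 166 and 93.9 CPM) had overlapping groups and log2 fold changes of 0.04 and 0.09 that did not pass the test. In both, shUBXN1 replicate 1 held the highest value of the 4 libraries. Without that library their log2 fold changes were -0.16 and -0.34, with edgeR adjusted p of 0.0471 and 0.000119. Without replicate 2 they were 0.19 and 0.40, with edgeR adjusted p of 0.0198 and 1.57e-05.

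**Figure D2:**
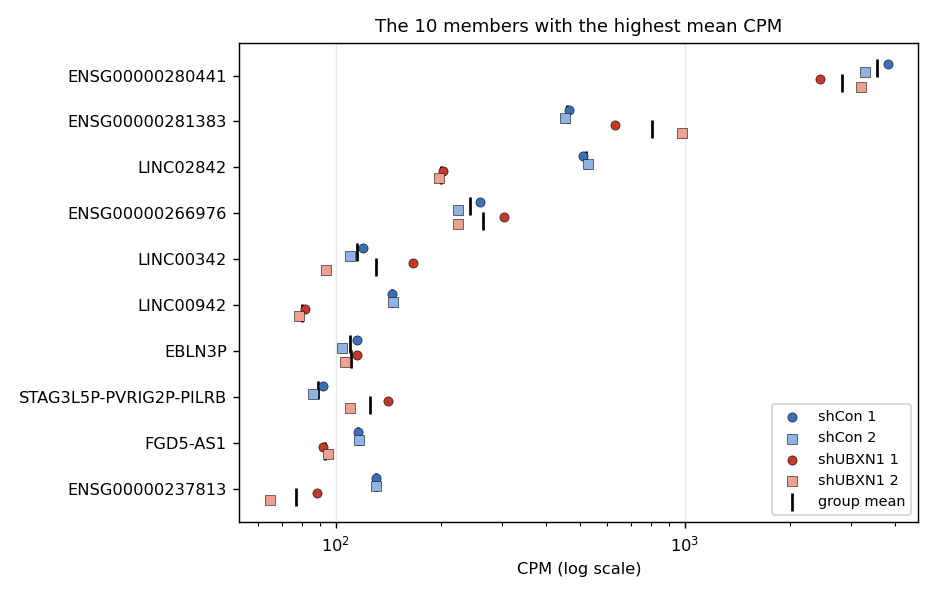
CPM (log axis) of the 10 members with the highest mean CPM, 1 point a library and a vertical tick for each group mean. LINC02842, LINC00942, FGD5-AS1 and ENSG00000237813 are lower in both shUBXN1 libraries, while LINC00342 has shCon between the shUBXN1 libraries.

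Replicate 1 of shUBXN1 was the higher of the pair in many members. The CPM ratio of shUBXN1 replicate 1 to replicate 2 was above 1.5 in 39 of the 235 members (16.6%), against 59 of 9709 protein-coding genes (0.608%), and below the inverse in 3 members. Between the shCon replicates no member had a ratio above 1.5 and 1 had a ratio below the inverse. The members' median ratio was 1.15 in shUBXN1 and 1.02 in shCon, and the protein-coding median in shUBXN1 was 1.01. These ratios were not counted for other lncRNAs, so they are not shown to be particular to the members. In shUBXN1 replicates 1 and 2, the named cancer lncRNAs left out summed to 3898 and 3210 CPM and the SNHG genes left out to 748 and 709.5 CPM. In shCon the sums were 3187 and 3085 CPM and 829 and 845 CPM. Among members with a GC content of 45% or less the ratio was above 1.5 in 21 of 84 (25%), and among those with more GC in 18 of 151 (11.9%). It was above 1.5 in 12 of the 64 members called higher (18.8%), 5 of the 64 called lower (7.81%) and 21 of the 84 not called (25%). Of the 79 members that share no exon base with another gene, 17 (21.5%) had a ratio above 1.5. Genes with at least 1 count numbered 25703 in shUBXN1 replicate 1 and between 23782 and 24559 in the other 3 libraries, and the part of that difference in these ratios was not tested.

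**Figure D3:**
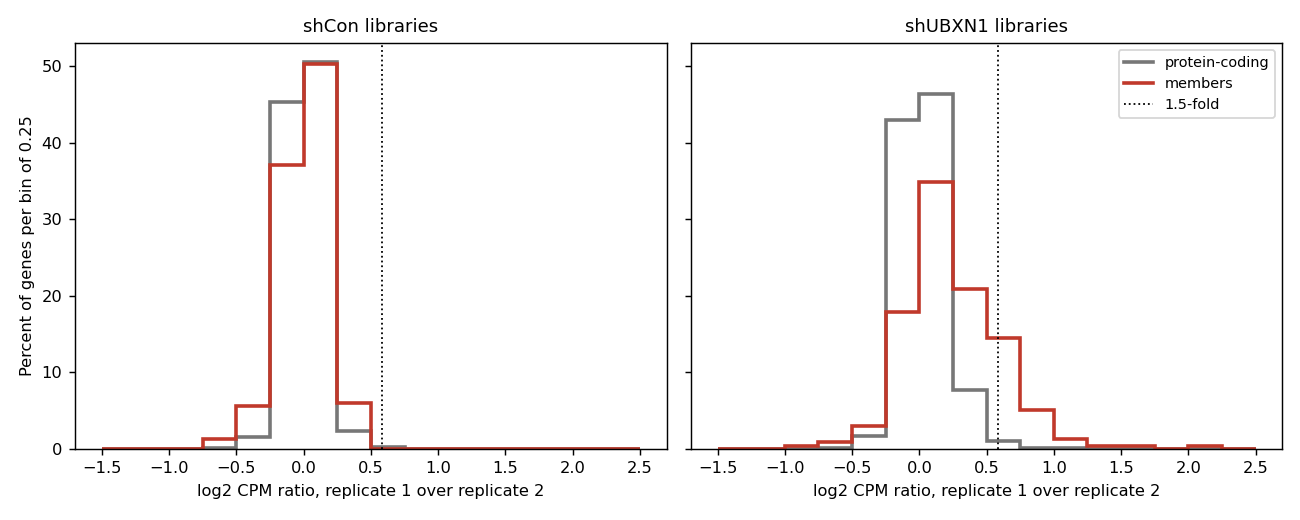
Percent of genes by log2 CPM ratio of replicate 1 to replicate 2, in bins of 0.25, for the 235 members (red) and 9709 protein-coding genes (grey), left for shCon and right for shUBXN1. In shCon both curves are narrow, while in shUBXN1 the members extend past the dotted line of 1.5-fold on the right.

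The widest gaps were in single genes. FTX, a lncRNA of the X inactivation centre, was at 65.9 and 74.0 CPM in shCon and at 172 and 67.1 CPM in shUBXN1. Replicate 1 of shUBXN1 was above all other libraries and replicate 2 was within the shCon range. The log2 fold change of 0.68 (SE 0.253, edgeR adjusted p = 0.0341) became -0.11 without replicate 1 (edgeR adjusted p = 0.27), so this call rested on 1 library. JPX, the neighbouring gene of the X inactivation centre that shares exon bases with FTX, was at 33.6 and 37.1 CPM in shCon and at 39.6 and 32.9 CPM in shUBXN1, with no call. ENSG00000277701 on chromosome 2 was at 48.1 and 42.5 CPM in shCon and 160 and 77.2 CPM in shUBXN1. Both shUBXN1 libraries were higher here, and its log2 fold change of 1.29 (SE 0.205, edgeR adjusted p = 9.59e-05) was 0.72 without replicate 1. ENSG00000263244 had the widest ratio of all, 7.39 against 1.63 CPM within shUBXN1.

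SLC9A3-AS1, transcribed against the sodium-proton exchanger gene SLC9A3, had the largest rise among the tested members. It was at 10.2 and 9.24 CPM in shCon and at 93.0 and 70.1 CPM in shUBXN1. Both shUBXN1 libraries were far above both shCon libraries, a log2 fold change of 2.98 (SE 0.117, edgeR adjusted p = 1.87e-10). SLC9A3 itself was below 0.301 CPM in every library. MMP25-AS1, against the membrane-bound metalloproteinase gene MMP25, was at 9.17 and 7.14 CPM and at 35.3 and 26.05 CPM, a log2 fold change of 1.82 (SE 0.145, edgeR adjusted p = 1.25e-07). MMP25 rose as well, by a log2 fold change of 2.36 at 0.220 to 1.94 CPM, and 27.0% of the exon bases of MMP25-AS1 are shared. PCED1B-AS1 was at 5.19 and 4.57 CPM and at 23.6 and 20.3 CPM, a log2 fold change of 2.08 (SE 0.136, edgeR adjusted p = 1.87e-08), with 4.83% of its exon bases shared.

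The other large rises were in genes of unknown role. ENSG00000273151 on chromosome 7 was at 4.0 and 5.31 CPM in shCon and at 40.4 and 24.1 CPM in shUBXN1 (log2 fold change 2.70, SE 0.202, edgeR adjusted p = 6.59e-08), and 38.4% of its exon bases lie in other genes, chiefly GET4, which rose by a log2 fold change of 0.31. ENSG00000259868 on chromosome 14 was at 3.80 and 2.96 CPM and at 20.6 and 14.0 CPM (log2 fold change 2.26, SE 0.19, edgeR adjusted p = 2.04e-07). ENSG00000285108, DANT2 and ENSG00000229178 rose by log2 fold changes of 1.83, 1.79 and 1.79. In all 8 of these genes shUBXN1 replicate 1 was the highest library, at 1.16 to 1.93 times replicate 2, and without it their log2 fold changes were 1.29 to 2.80. All but ENSG00000229178 had met the minimum in shUBXN1 only, so their p-values are not free of how members were chosen.

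**Figure D4:**
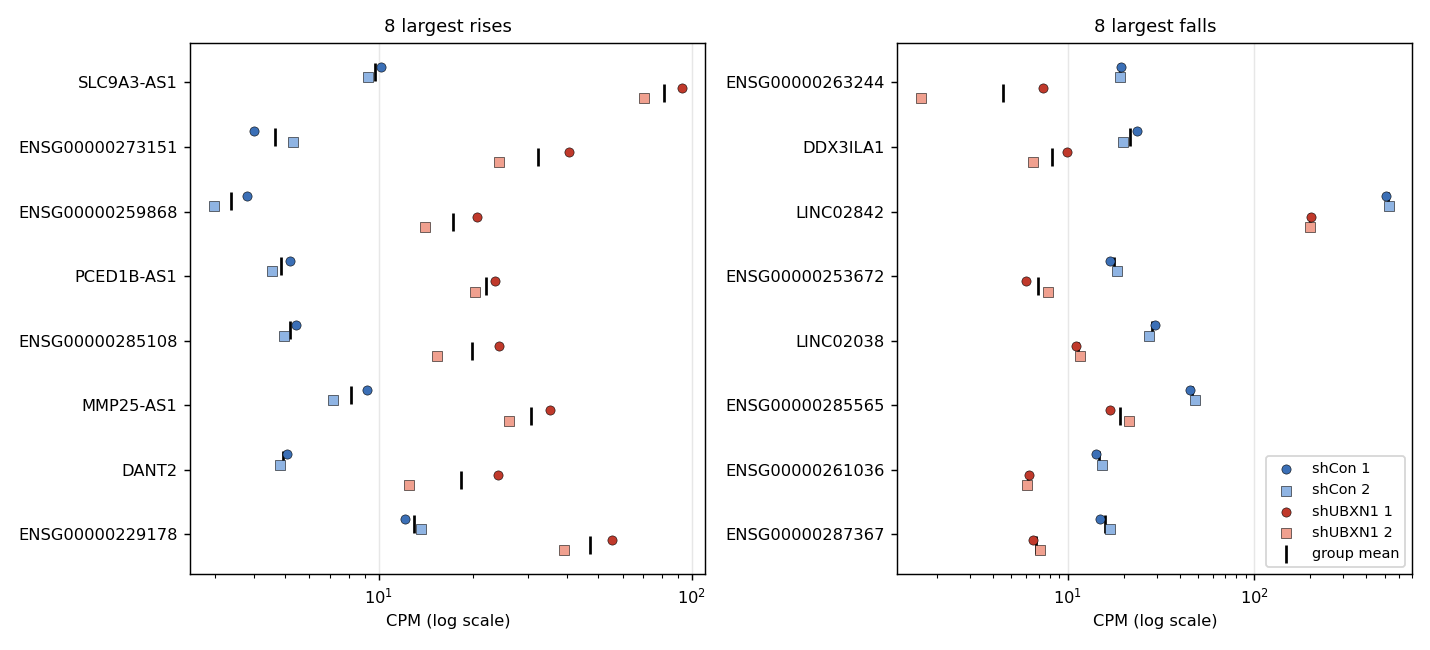
CPM (log axis) of the 8 tested members with the largest rises (left) and the 8 with the largest falls (right) among those with an adjusted p under 0.05 and groups that do not overlap, 1 point a library and a tick for each group mean. All 4 points of each gene split by group, and in each gene on the left the red circle of shUBXN1 replicate 1 lies to the right of replicate 2.

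The largest fall was that of ENSG00000263244 (chr16:9104848-9113181, plus strand), at 19.3 and 18.98 CPM in shCon and at 7.39 and 1.63 CPM in shUBXN1. Both shUBXN1 libraries were lower (log2 fold change -2.18, SE 0.341, edgeR adjusted p = 8.31e-05), by -3.60 without replicate 1 and by -1.51 without replicate 2. Its single exon lies wholly inside HAPSTR1, a nuclear stress response gene at 115 to 140 CPM whose log2 fold change was 0.12 (edgeR adjusted p = 0.226). Counts of ENSG00000263244 and HAPSTR1 cannot be told apart. ENSG00000285565, which lies wholly inside exons of other genes, chiefly of the heat shock protein 70 gene HSPA1B, was at 45.1 and 48.2 CPM and at 16.9 and 21.3 CPM (log2 fold change -1.37, SE 0.116, edgeR adjusted p = 2.17e-07). HSPA1B fell as well, from 378 and 411 CPM to 186 and 181 CPM, and the counts of the 2 genes cannot be told apart.

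Falls in genes that share no exon base were seen in LINC02842, described above, and in 5 others of the 8. LINC02038 on chromosome 3 was at 29.5 and 27.4 CPM in shCon and at 11.03 and 11.6 CPM in shUBXN1 (log2 fold change -1.41, SE 0.109, edgeR adjusted p = 9.29e-08). DDX3ILA1 on chromosome 7 was at 23.7 and 19.8 CPM and at 9.98 and 6.50 CPM (log2 fold change -1.49, SE 0.159, edgeR adjusted p = 2.23e-06). In both the groups were clearly apart. ENSG00000253672 on chromosome 8 and ENSG00000261036 and ENSG00000287367 on chromosome 5 had log2 fold changes of -1.43, -1.35 and -1.303. DDX3ILA1 and these last genes had met the minimum in shCon only, as had ENSG00000263244, so the same limit holds for their tests.

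The calls of members were set beside those of the genes that overlap them. The gene that shares most exon bases could be tested for 79 of the members with more than 5% shared, and 53 of these pairs had log2 fold changes of 1 sign. Of the members called higher, 17 had a neighbour that was higher, 3 one that was lower and 6 one not called. Of those called lower, 12 had a neighbour that was lower, 1 one that was higher and 9 one not called. Of those not called, 8 had a neighbour that was higher, 12 one that was lower and 11 one not called. The background over all genes tested was 28% higher and 28.2% lower. FTX and JPX are each other's neighbour, so that pair enters from both sides. Shared reads were not separated, and their part in these counts was not tested.

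Lists of lncRNAs by role covered fewer genes. Of 27 lncRNAs known in liver and liver cancer, 13 were tested, leaving out the untested members TMPO-AS1 and CASC9. Of the 13, 1 was higher, 6 were lower and 6 passed in neither direction, with a median log2 fold change of -0.28. The median was 0.02 over all genes tested and 0.15 over the lncRNA genes tested. Of all genes tested, 28% were higher and 28.2% lower, and of the lncRNA genes tested 20.6% and 12.0%. Of protein-coding genes at a mean of 10 CPM or more, 27.9% were higher and 38.7% lower. Members among the 13 with a mean of 10 CPM or more numbered 6, and 4 of these fell. DANCR, named for its role against cell differentiation, was at 36.9 and 40.0 CPM and at 19.7 and 21.05 CPM, a log2 fold change of -1.0 (SE 0.0977, edgeR adjusted p = 9.23e-07). AFAP1-AS1 and LUCAT1, which are raised in several carcinomas, both had log2 fold changes of -0.47 (edgeR adjusted p = 0.00255 and 0.00105). AFAP1-AS1 shares 42.2% of its exon bases, and AFAP1 itself fell by 0.51 on the log2 scale. CYTOR (19.3, 21.6, 20.1 and 18.9 CPM, log2 fold change -0.15) and CRNDE (12.1, 10.8, 10.5 and 9.54 CPM, log2 fold change -0.28) did not pass the test.

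Below a mean of 10 CPM, members entered through 1 group only, so their differences are given with no test. TMPO-AS1, transcribed against the nuclear lamina gene TMPO, was at 15.2 and 14.6 CPM in shCon and at 3.21 and 3.81 CPM in shUBXN1, a log2 difference of -2.17. TMPO, which this choice did not use, fell from 552 and 534 CPM to 213 and 231 CPM (log2 fold change -1.37, SE 0.0837, edgeR adjusted p = 9.61e-09), and 19.2% of the exon bases of TMPO-AS1 are shared. GATA2-AS1 was at 16.2 and 15.1 CPM in shCon and at 4.52 and 4.19 CPM in shUBXN1, and CASC9 at 11.4 and 11.1 CPM and at 6.10 and 4.56 CPM. In the other direction, ENSG00000233589, which shares 35% of its exon bases with DEPDC1, was at 0.797 and 1.296 CPM in shCon and at 11.9 and 13.3 CPM in shUBXN1. ENSG00000284685 (2.84, 3.88, 16.8 and 11.4 CPM) and SERPINB9P1 (2.45, 3.13, 11.5 and 10.8 CPM) entered the same way. Of the tested members, 62 also met the minimum in 1 group only, 27 in shCon and 35 in shUBXN1. Among them are SLC9A3-AS1, MMP25-AS1, ENSG00000273151, ENSG00000259868, PCED1B-AS1 and ENSG00000263244.

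Promoters (250 bases before to 50 after the start, GRCh38.p14, from RefSeq) were found for 105 members. The motifs searched on both strands were the CCAAT box (CCAAT), the GC box (GGGCGG), the cAMP response element (CRE, TGACGTCA), the cell cycle homology region (CHR, TTTGAA), and the TATA box (TATAAA), none of which contains another. A CCAAT box was in 40.0% of the members' promoters and in 35.7% of all 27305 promoters, a GC box in 53.3% and 44.6%, a TATA box in 7.62% and 11.9%, a CHR in 12.4% and 15.4%, and a CRE in 2.86% and 1.98%. In the 7971 promoters of protein-coding genes with a mean of 10 CPM or more, the shares were 36.9% for the CCAAT box, 72.3% for the GC box, 5.03% for the TATA box, 9.30% for the CHR and 3.48% for the CRE. The 4 printed promoters are those of the tested member with the largest rise, the tested liver cancer list member with the most CCAAT boxes, and the pair of untested members with the largest drops among those with a RefSeq promoter. Capitals mark motif matches. They lie at chr5:472986-473285 (plus strand), chr4:52712144-52712443 (plus), chr12:98516177-98516476 (minus) and chr3:128488953-128489252 (plus).
SLC9A3-AS1: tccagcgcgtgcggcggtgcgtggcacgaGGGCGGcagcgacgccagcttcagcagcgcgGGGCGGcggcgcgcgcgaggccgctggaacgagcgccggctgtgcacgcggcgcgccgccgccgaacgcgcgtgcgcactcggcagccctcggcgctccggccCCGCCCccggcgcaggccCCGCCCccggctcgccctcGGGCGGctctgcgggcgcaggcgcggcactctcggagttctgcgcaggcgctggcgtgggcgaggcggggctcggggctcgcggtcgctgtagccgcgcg
DANCR: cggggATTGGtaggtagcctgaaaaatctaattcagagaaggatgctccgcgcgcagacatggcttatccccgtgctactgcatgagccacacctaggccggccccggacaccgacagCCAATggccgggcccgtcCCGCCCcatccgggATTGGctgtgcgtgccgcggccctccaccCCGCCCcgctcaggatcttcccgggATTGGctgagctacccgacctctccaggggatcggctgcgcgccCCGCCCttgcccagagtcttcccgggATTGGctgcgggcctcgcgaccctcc
TMPO-AS1: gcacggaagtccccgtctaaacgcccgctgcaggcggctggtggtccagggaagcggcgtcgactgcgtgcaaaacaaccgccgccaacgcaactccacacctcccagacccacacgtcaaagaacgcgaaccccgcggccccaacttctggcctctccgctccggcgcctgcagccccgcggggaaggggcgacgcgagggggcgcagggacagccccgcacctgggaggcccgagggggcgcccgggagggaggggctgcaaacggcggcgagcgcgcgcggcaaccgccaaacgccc
GATA2-AS1: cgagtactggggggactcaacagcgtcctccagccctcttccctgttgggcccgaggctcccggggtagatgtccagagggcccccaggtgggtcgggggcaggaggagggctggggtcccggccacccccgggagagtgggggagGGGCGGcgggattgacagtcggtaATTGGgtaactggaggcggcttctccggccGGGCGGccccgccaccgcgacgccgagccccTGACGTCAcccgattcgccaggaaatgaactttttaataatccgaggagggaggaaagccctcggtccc

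The promoter of SLC9A3-AS1 held 5 GC boxes and a GC content of 82.3%. That of DANCR held 5 CCAAT boxes, 4 of them on the minus strand, and 3 GC boxes. None of the 5 motifs was found in the TMPO-AS1 promoter, and a CRE, which reads the same on both strands, a CCAAT box and 2 GC boxes were found in that of GATA2-AS1. Among members called higher, 13 of 35 promoters held a CCAAT box (37.1%), and among those called lower 7 of 27 (25.9%).

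Several members are host genes of microRNAs. Of 85 such genes listed, 31 were tested and 9 were higher, 3 lower and 19 passed in neither direction, with a median log2 fold change of 0.27. The background is that given for the liver list, 28% higher and 28.2% lower over all genes and 20.6% and 12.0% over lncRNA genes. Of the 7 that are members, 5 were called higher, but MIR23AHG, MIR34AHG and MIRLET7IHG met the minimum in shUBXN1 only and FTX rests on 1 library, so nothing is read from this count. What was counted is the host transcript, not the microRNA, which a poly(A) library does not capture. GENCODE places 25 microRNA genes inside 18 members, and a RefSeq mature sequence was found for 24. The mature sequences below are the main products of the named hosts, 5′ to 3′, with the seed (bases 2 to 8), which pairs with target mRNAs, in capitals.
hsa-miR-221-3p: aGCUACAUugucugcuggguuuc
hsa-miR-222-3p: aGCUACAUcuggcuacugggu
hsa-miR-22-3p: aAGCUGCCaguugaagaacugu
hsa-miR-23a-3p: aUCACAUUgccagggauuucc
hsa-miR-24-3p: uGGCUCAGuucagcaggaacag
hsa-miR-27a-3p: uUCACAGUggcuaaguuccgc
hsa-miR-34a-5p: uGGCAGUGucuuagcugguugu
hsa-let-7i-5p: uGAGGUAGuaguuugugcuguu
hsa-miR-374b-5p: aUAUAAUAcaaccugcuaagug
hsa-miR-421: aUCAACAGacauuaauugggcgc
hsa-miR-545-3p: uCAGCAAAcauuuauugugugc
hsa-miR-4435: aUGGCCAGagcucacacagagg

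The first 2 come from MIR222HG and share the seed GCUACAU. The next is from MIR22HG. Then come 3 from MIR23AHG, 1 each from MIR34AHG and MIRLET7IHG, 3 from FTX, and the last lies in both MIR4435-2HG and CYTOR. MIR23AHG was at 8.45 and 7.78 CPM in shCon and at 16.7 and 14.9 CPM in shUBXN1, a log2 fold change of 0.87 (SE 0.13, edgeR adjusted p = 5.38e-05). MIRLET7IHG, host of let-7i, was at 7.57 and 8.28 CPM and at 15.5 and 11.5 CPM (log2 fold change 0.68, SE 0.152, edgeR adjusted p = 0.00161). MIR34AHG, host of the p53-induced miR-34a, was at 8.33 and 8.64 CPM and at 15.7 and 12.6 CPM (log2 fold change 0.65, SE 0.139, edgeR adjusted p = 0.00115). In these 3 hosts both shUBXN1 libraries were above both shCon libraries. All 3 had met the minimum in shUBXN1 only, so neither this nor their p-values are free of how members were chosen. MIR4435-2HG rose from 62.4 and 64.0 CPM to 86.8 and 74.6 CPM (log2 fold change 0.27, SE 0.0777, edgeR adjusted p = 0.00919). FTX was called higher only through replicate 1, as above. MIR222HG (16.7, 16.5, 19.3 and 15.96 CPM, log2 fold change 0.00) and MIR22HG (26.4, 27.5, 32.4 and 33.5 CPM, log2 fold change 0.21, edgeR adjusted p = 0.0679) did not pass. MIR4435-2HG and CYTOR are related copies on chromosome 2, and 54.0% of the 50-base words of CYTOR transcripts occur in those of MIR4435-2HG, so the division of reads between them is uncertain.

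Smaller lists held few members, and with so few genes their counts are only set beside the background of 28% higher and 28.2% lower over all genes. Of 9 tested HOX cluster lncRNAs, 3 were lower and the other 6 passed in neither direction. The 3 include HOXA-AS2 (20.7 and 18.0 against 17.0 and 12.6 CPM, log2 fold change -0.47, SE 0.131, edgeR adjusted p = 0.00677). Of 4 tested p53 and DNA damage lncRNAs 1 was higher, MIR34AHG, which had met the minimum in shUBXN1 only. Of 4 tested lncRNAs of the NF-κB and interferon list 2 were higher and 1, LUCAT1, was lower. Of 17 tested hosts of small nucleolar RNAs outside the SNHG family, 3 were lower and the other 14 passed in neither direction. The 3 include the members DANCR and ENSG00000285565. The other 3 member hosts, XACT (0.01), ENSG00000264772 (0.35) and ENSG00000227400 (-0.01), had log2 fold changes that did not pass, and XACT had a log2 fold change of -0.29 without shUBXN1 replicate 1 (edgeR adjusted p = 0.0132). ENSG00000264772 shares 86.8% of its exon bases, chiefly with the translation factor gene EIF4A1, which fell by 0.97 on the log2 scale.

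Many members start beside a protein-coding gene. For 60 members the start of a protein-coding gene lay within 2 kb on the opposite strand, and 55 such pairs had both genes tested and a member mean of 10 CPM or more. The protein-coding partner had the higher CPM in 40 pairs. In 8 pairs both genes were higher in shUBXN1 cells and in 2 both were lower, while in 6 they went opposite ways. In 7 pairs the member was higher and in 9 lower with no call on the partner, and in 23 the member was not called. The background over all genes tested was 28% higher and 28.2% lower. In 22 pairs at most 5% of the member's exon bases were shared. Of these 22, 1 pair was higher in both genes, 1 lower in both, and 1 had a lower member with a higher partner. Across the 55 pairs, which share the same 4 libraries, Pearson's r between the log2 fold changes was 0.0888 and Spearman's rho 0.153, given as a description.

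CD27-AS1 and TAPBPL, an antigen presentation gene, were the pair with the largest shared rise of the member. CD27-AS1 was at 10.05 and 9.25 CPM in shCon and at 27.7 and 23.7 CPM in shUBXN1 (log2 fold change 1.33, edgeR adjusted p = 2.99e-07), and TAPBPL at 13.6 and 14.0 CPM and at 28.6 and 23.9 CPM (log2 fold change 0.84, edgeR adjusted p = 1.56e-05). RAB4A-AS1 and the endosomal GTPase gene RAB4A both fell, by 0.58 and 0.75 on the log2 scale. MILIP and MAFG, a small Maf transcription factor gene, went opposite ways. MILIP was at 13.8 and 13.9 CPM in shCon and at 9.79 and 9.18 CPM in shUBXN1 (log2 fold change -0.63, edgeR adjusted p = 0.000722), and MAFG rose from 20.5 and 14.6 CPM to 67.7 and 67.7 CPM (log2 fold change 1.86, edgeR adjusted p = 1.48e-08). Among the most abundant members, FGD5-AS1 fell while its partner NR2C2, a nuclear receptor gene, rose by a log2 fold change of 0.28 (edgeR adjusted p = 0.00966). Of the listed members with partners, MIR22HG and WDR81 (log2 fold change -0.11) had no call, and CRNDE was not called while the homeobox gene IRX5 fell by 1.35 on the log2 scale. TMEM9B-AS1 (log2 fold change 1.65) and SRP14-DT (1.53) rose with no call on TMEM9B (-0.10) or SRP14 (0.02). The pairs of CD27-AS1, RAB4A-AS1, MILIP, TMEM9B-AS1 and SRP14-DT were chosen after their values were seen. Of these members, CD27-AS1, TMEM9B-AS1 and SRP14-DT met the minimum in shUBXN1 only and MILIP in shCon only.

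**Figure D5:**
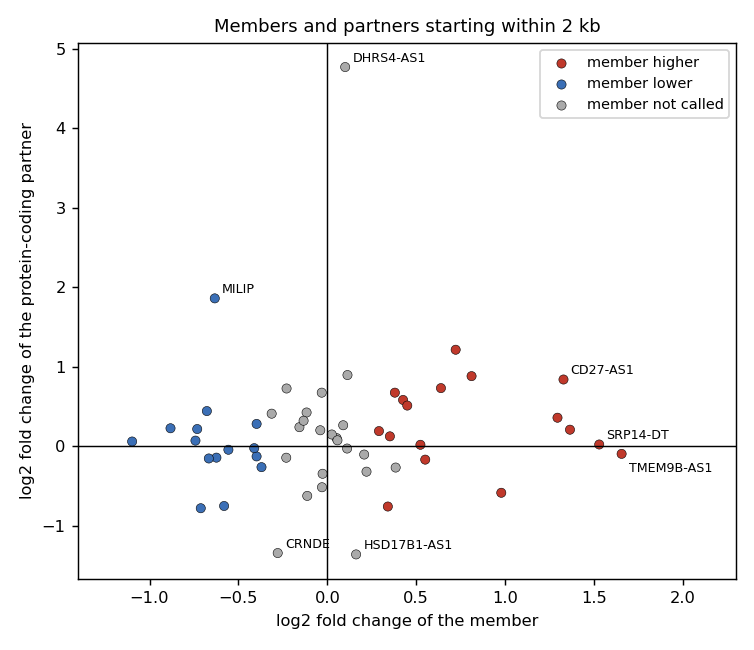
Log2 fold change of the protein-coding partner against that of the member for the 55 pairs whose starts lie within 2 kb on opposite strands, 1 point a pair, coloured by the call on the member. Points lie in all 4 quadrants, with MILIP lower and its partner higher and CD27-AS1 higher with its partner.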

How the data were processed

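RNA from 4 libraries of MHCC97H cells, 2 shCon and 2 shUBXN1, was measured in expected counts per gene. The table the authors deposited holds these expected counts, not normalized, given with decimals, and a gene length. The submitters' processing notes name GRCh37, HISAT2 2.0.4 and StringTie 1.3.0, whereas the paper's methods name GRCh38 and Hisat2. The library kit is VAHTS mRNA-seq per the labels and TruSeq per the methods. The counting tool, the annotation release and the use of strand are not given in the sources used here. Gene IDs were matched to GENCODE release 44 on GRCh38 (61369 of 61541), which gave types, exons and coordinates, since the table has none. Genes such as ENSG00000280441 belong to sequence placed in GRCh38.

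Counts were rounded to whole numbers, filtered with filterByExpr, scaled by TMM and tested by quasi-likelihood in edgeR 4.0.16 (glmQLFit, glmQLFTest; R 4.3.3), with no block, and p-values were adjusted by Benjamini-Hochberg over all 16863 genes tested. Library totals were 27380508 and 24305174 (shCon) and 23433826 and 23373700 (shUBXN1). The coefficient of biological variation was 0.0711, and the chi-square of the counts over its degrees of freedom was 3.75 for the shCon pair and 8.34 for the shUBXN1 pair, above sampling noise. Counts were simulated with 200 genes changed by a fold of 2 or more and the same coefficient of variation in every gene and library. On these the test recovered 181 of the 200 changed genes and called 8 others. Smaller changes and the wider spread of the shUBXN1 pair were not simulated. TPM was computed from the counts and the deposited lengths. Named genes were the 10 with the highest mean CPM, the 8 largest rises and 8 largest falls among tested members with an adjusted p under 0.05 and groups that do not overlap, members of the role lists, the genes at the threshold, up to 10 that met the minimum in 1 group only, and protein-coding partners. Members and lists were chosen with earlier results of these data known. Alternatives were total count scaling, DESeq2 1.42.0, limma 3.58.1 (voom, and on log2(TPM + 1)), other filters, a replicate block, each library left out, GC correction, unrounded counts, other CPM minimums, members with little overlap and a fold of 1.5. The values of 1 named member are not reported here.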

Additional observations from a re-analysis of the deposited data

How the results depend on the processing

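UBXN1 kept its direction and its call under every alternative run (log2 fold change -2.16 to -1.93). Leaving out 1 library at a time gave 53 to 84 members higher and 57 to 82 lower at an adjusted p under 0.05, 22 to 28 higher and 13 to 16 lower at a fold of 2, and a median log2 fold change of -0.10 to 0.12, with the lowest median without shUBXN1 replicate 1. No member called by edgeR with all 4 libraries took the opposite call under these or the other fits. That comparison does not cover members with no call from all 4 libraries. Among those, ENSG00000266976 and LINC00342 took opposite signs without shUBXN1 replicate 1 and without replicate 2. GC correction gave 21 members lower at a fold of 2, and the cause was not tested. A CPM minimum of 5 gave 105 higher and 105 lower at the adjusted p and 38 and 27 at a fold of 2 over 378 members. A minimum of 20 gave 23 and 36, and 6 and 4, over 95 members. Members with at most 5% of exon bases shared gave 26 and 34, and 14 and 7, over 104. All 235 members gave 21 lower at a fold of 2, and a fold of 1.5 gave 43 higher and 34 lower. These membership and fold settings change which genes are counted. With the replicate block, 71 members were higher and 67 lower and the median log2 fold change was 0.03. The correlation of deviations of same-numbered libraries was 0.0404, so the numbers were not taken as pairs. Without shUBXN1 replicate 1, log2 fold changes reversed for ENSG00000266976 (-0.16), LINC00342 (-0.34), FTX (-0.11) and XACT (-0.29), and without replicate 2 they were 0.19, 0.40, 1.16 and 0.24. Of 637 alternative values of the 49 named members, 607 kept the call or the lack of one, 14 lost the call and 12 gained it. The other 4 are the reversals just given. A change of sign with no call in either fit counts among the 607, as for MIR222HG and JPX. For named members with no test, only direction was compared. With 2 libraries a group, the spread between cultures is poorly known.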
